A study of Mus musculus with 10 samples.

Results

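Glucocorticoid hormones act through the glucocorticoid receptor, a ligand-activated transcription factor that is held in the cytoplasm by chaperones and moves to the nucleus when hormone binds. There it binds palindromic response elements near genes that it induces, and it lowers the output of many inflammatory genes. In bone-forming cells glucocorticoids are known both to aid differentiation in culture and, over long exposure, to impair bone formation in the body.

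This account follows 10 genes known to respond to glucocorticoids, Fkbp5, Tsc22d3, Per1, Zbtb16, Klf9, Sgk1, Dusp1, Errfi1, Hsd11b1 and Ddit4, among 29583 genes in the deposited table. They were found by gene name, and each had 1 row. They had been selected on their values in treated and 0 μM cells, so their levels and fold changes in that comparison are given as a description, with no test. MC3T3-E1 is a line of mouse osteoblast precursors from newborn C57BL/6 skull bone. Third-passage cells grew in standard medium, to which the plant sterol β-ecdysterone was added at 100, 150 or 200 μM or not at all (0 μM). Polyadenylated RNA was sequenced after 5 and 10 days. There was 1 library per dose and day. Another 2 libraries, A-5 and B-4, were labelled untreated, and their labels gave neither a time nor a dose. All 6 libraries with the sterol were set against both 0 μM libraries, so the doses served as replicates. The labels gave an n of 3 for RNA extraction but did not say whether a library pooled cultures, nor which libraries came from separate cultures, and p-values then measure only the spread between these libraries, which may be technical.

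Library totals ran from 27108562 to 58218009 counts. At day 5 they were 48951468 at 0 μM, 29833654 at 100 μM, 57220036 at 150 μM and 29637936 at 200 μM. At day 10 they were 31300928, 27108562, 58218009 and 53666325 in the same order. A-5 held 28772087 counts and B-4 held 29789271. A gene with no count could have had up to 3 counts, or 0.0996 CPM (counts scaled to a common library size) in the 100 μM library of day 5. CPM values were scaled by TMM, a correction for library composition. Such floors cover counting error only.

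The source name of the samples gave bone marrow mesenchymal stem cells, while the titles gave MC3T3-E1. The osteoblast collagens were the most abundant markers at 0 μM and in treated cells. Col1a2, a chain of type I collagen, had a mean of 2209.7 FPKM (fragments per kilobase, scaled to library size) at 0 μM and 2292.2 FPKM in treated cells. Alpl, the alkaline phosphatase of mineralising cells, had 0 and 2 counts in the 0 μM libraries and between 486 and 3460 counts in the treated ones. Runx2, a master transcription factor of osteoblasts, was higher in treated cells (log2 fold change 1.27 ± 0.12 SE, edgeR adjusted p = 4.11e-05). With A-5 and B-4 in place of 0 μM the log2 fold change of Runx2 was 0.53 and with both added it was 0.87, neither of them called. Of 11 osteoblast markers, 4 were called higher and 1 lower, beside 13.4% and 5.98% of all genes tested. Spp1, another of them, was uncalled but below both 0 μM libraries in all 6 treated libraries. It was 0.466 to 0.954 times the 0 μM library of the same day. Bglap2 was also uncalled, at 0.411 to 6.48 times that library, and its groups overlapped. The lower call, Dmp1, was lost without the 0 μM library of day 5, where its log2 fold change went from -2.10 to -0.71, and by limma. In place of 0 μM, A-5 and B-4 gave 2 lower calls among these markers. A call required an adjusted p under 0.05 and a log2 fold change beyond 1.

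B-4 and A-5 differed, though both were labelled untreated. On the log2 CPM scale the level in B-4 was nearer to the treated mean than to the 0 μM mean for 60.1% of 16794 genes. The same held for 8 of the 10 genes. These 8 include Hsd11b1, which had 0 counts in B-4. For A-5 the same held for 2 of the 10 genes and for 39.6% of all genes. These counts depend on the scale, since in plain CPM Zbtb16 in B-4 and Ddit4 in A-5 were nearer to the 0 μM mean. Nothing is read from the counts of the 10 genes, which were chosen on their treated and 0 μM values. Of the osteoblast markers called higher in treated cells, 3 were far below the treated libraries in B-4. Alpl had 18 counts in A-5 and 105 in B-4, and its CPM of 3.50 in B-4 lay below the 16.1 to 65.0 CPM of treated cells. Ibsp, a bone matrix protein, had 2.37 CPM in A-5, 9.09 in B-4 and 73.3 to 809.7 in treated cells. Sp7, a transcription factor of osteoblasts, had 9.69 CPM in A-5, 10.5 in B-4 and 52.6 to 134 in treated cells. The other, Runx2, had 113 CPM in A-5 and, at 195 CPM in B-4, lay within the treated range. In the titles of the dated libraries the letter A went with day 5 and B with day 10, but the labels of A-5 and B-4 gave no day. Because these labels gave no time or dose, both libraries were kept out of the main comparisons of treatment, day and dose. Values with them are given beside several results.

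Fkbp5 and Tsc22d3 are widely used readouts of receptor activity. Fkbp5 encodes a co-chaperone that lowers the hormone affinity of the receptor in a feedback loop. Its CPM was 68.5 at 0 μM on day 5 and 67.4 on day 10. In treated cells its CPM was 636, 552 and 553 at 100, 150 and 200 μM on day 5, and 556, 468 and 566 on day 10. All 6 treated libraries lay far above both 0 μM libraries, and the groups did not overlap. The log2 fold change was 3.03 ± 0.13 SE, and single libraries were 6.94 to 9.28 times the 0 μM library of their day.

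Tsc22d3 encodes GILZ, a leucine zipper protein that mediates part of the anti-inflammatory action of the hormone. Its CPM was 85.4 at 0 μM on day 5 and 113 on day 10. In treated cells its CPM was 1376, 1220 and 1260 on day 5 and 1242, 1109 and 1164 on day 10, from the lowest to the highest dose. The treated libraries again stood clear of both 0 μM libraries, and the lowest treated value came from 150 μM on day 10. The log2 fold change was 3.63 ± 0.17 SE.

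Zbtb16 encodes PLZF, a zinc finger repressor that glucocorticoids induce in many cell types. It had 5 counts at 0 μM on day 5 and 14 on day 10, and 162, 442 and 182 counts in treated cells on day 5. On day 10 the treated libraries had 198, 589 and 604 counts. Its CPM was 0.099 and 0.442 at 0 μM, 5.38 to 7.39 in treated cells on day 5 and 7.78 to 11.6 on day 10. Every treated library was above both 0 μM libraries, and every treated day 10 library was above every treated day 5 library. The log2 fold change was 5.07 ± 0.37 SE, the greatest of the 10 genes, but it rests on few counts at 0 μM. It was 5.94 without the 0 μM library of day 10, and 1.18 by limma on log2(FPKM + 1), a scale that understates changes from low levels.

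Ddit4 encodes REDD1, a brake on the growth kinase mTORC1. Its CPM was 115 and 89.2 at 0 μM on days 5 and 10, 339, 281 and 323 in treated cells on day 5, and 274, 193 and 298 on day 10. The groups did not overlap, and the lowest treated value came from 150 μM on day 10. The log2 fold change was 1.49 ± 0.17 SE, but its direction reversed with A-5 and B-4 in place of 0 μM, as given below. Errfi1, which encodes an inhibitor of the EGF receptor, had 71.7 and 70.3 CPM at 0 μM and 116 to 214 CPM in treated cells, with a log2 fold change of 1.08 ± 0.19 SE.

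The remaining genes differed less. Klf9, a transcriptional repressor, had 27.5 and 24.0 CPM at 0 μM and 39.2 to 52.5 CPM in treated cells. Per1, a clock repressor, had 135 and 131 CPM at 0 μM and 145 to 205 CPM in treated cells. Sgk1, a kinase that regulates ion transport, had 398 and 330 CPM at 0 μM and 428 to 645 CPM in treated cells. For these genes, too, each treated library was above both 0 μM libraries, by narrow margins for Per1 and Sgk1. Their log2 fold changes were 0.79 ± 0.13, 0.37 ± 0.12 and 0.45 ± 0.14 SE.

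Dusp1 and Hsd11b1 did not separate the groups. Dusp1, a phosphatase that switches off MAP kinases, had 32.8 and 34.8 CPM at 0 μM. In treated cells its CPM was 33.6, 19.6 and 18.6 on day 5 and 58.8, 16.3 and 31.9 on day 10. The treated values lay on both sides of the 0 μM values, with the highest at 100 μM on each day, and the log2 fold change was -0.23 ± 0.39 SE. Hsd11b1 encodes the enzyme that makes active hormone from its inert 11-keto form. It had 15 and 14 counts at 0 μM, 0, 11 and 5 in treated cells on day 5, and 7, 17 and 17 on day 10. Scaled to depth, and on these few counts, it was below the 0 μM library of its day in all 6 treated libraries. With a prior count of 2 it was 0.146 to 0.766 times that library. The lowest ratio is for the library with 0 counts, so that its size rests on the prior count.

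**Figure D1:**
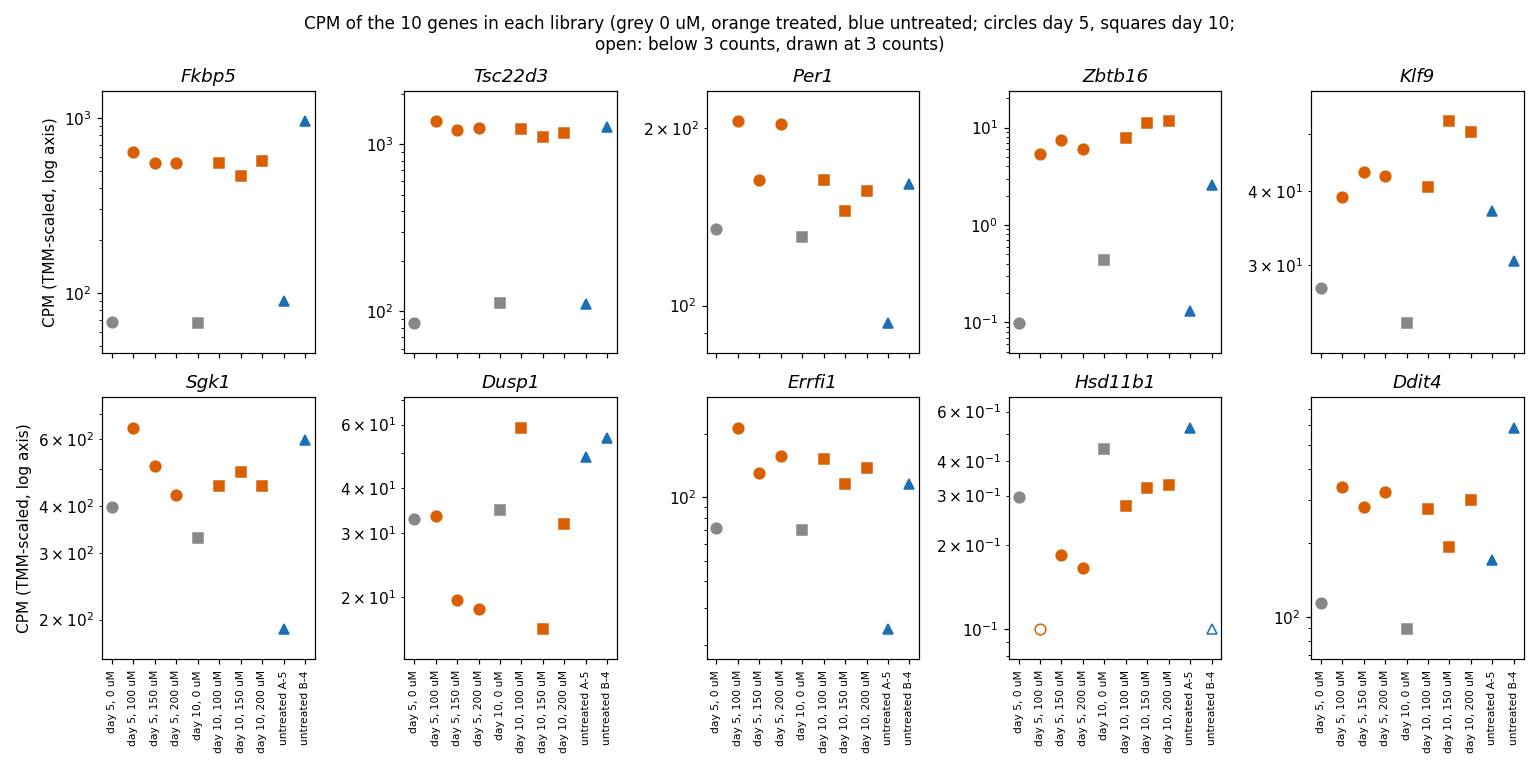
CPM of each of the 10 genes (log axis, TMM-scaled) in the 10 libraries, with circles for day 5, squares for day 10 and triangles for the untreated libraries. Grey points are 0 μM, orange points treated and blue points untreated, and open points lie below 3 counts and are drawn at that floor. Fkbp5 and Tsc22d3 in B-4 lie at 958 and 1277 CPM, with or above the treated libraries.

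In all, 4 of the 10 genes (Fkbp5, Tsc22d3, Zbtb16 and Ddit4) were over 2-fold higher than the 0 μM library of their day in all 6 treated libraries, as were 8.03% of all genes tested. For 8 of the 10 every treated library was above both 0 μM libraries, as for 27% of all genes. Nothing is read from these shares, since the genes were chosen by this contrast. The median log2 fold change was 0.93 over the 10 genes and 0.05 over all genes. In bulk RNA, fewer cells of a type and less RNA per cell cannot be told apart.

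Per length, Tsc22d3 had the highest level of the 10 genes in treated cells, 557 ± 53.2 FPKM (SD, n = 6). Sgk1, Ddit4 and Fkbp5 followed with 175 ± 30.5, 143 ± 28.2 and 138 ± 15.8 FPKM, and these neighbours overlapped in their spread. Errfi1 and Per1, at 43.6 ± 10.2 and 34.7 ± 5.59 FPKM, overlapped as well. Dusp1 and Klf9 had 13.0 ± 6.42 and 12 ± 1.45 FPKM and did not differ beyond their spread. Zbtb16 had 1.40 ± 0.43 FPKM and Hsd11b1 0.117 ± 0.0752 FPKM. At 0 μM Sgk1 was the highest, with a mean of 133 FPKM, followed by Ddit4 with 52.7 and Tsc22d3 with 46.9 FPKM.

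The untreated libraries differed from each other. Fkbp5 had 89.6 CPM in A-5 and 958 in B-4, Tsc22d3 had 111 and 1277, and Zbtb16 had 0.131 and 2.57. B-4 was therefore like the treated libraries in Tsc22d3, above all of them in Fkbp5 and between the groups in Zbtb16. Ddit4 had 170 CPM in A-5 and 588 in B-4, and B-4 again exceeded every treated library. Errfi1 had 23.8 and 116 CPM and Sgk1 189 and 597 CPM, and for both A-5 was below either 0 μM library. Klf9 had 37.1 CPM in A-5 and 30.5 in B-4, and Dusp1 had 48.8 and 55.0, so that these genes did not follow Fkbp5. Hsd11b1 went the opposite way, with 16 counts in A-5 and 0 in B-4. Of the 10 genes, 6 were over 2-fold higher in B-4 than in A-5, as were 11.4% of all genes. Nothing is read from this count, since each side was 1 library and the genes were chosen with earlier results of these data known. With A-5 and B-4 in place of both 0 μM libraries, the log2 fold change was 0.08 for Fkbp5, 0.82 for Tsc22d3, 2.60 for Zbtb16 and -0.42 for Ddit4. With both added to the 0 μM libraries it was 0.91 for Fkbp5, 1.63 for Tsc22d3, 3.38 for Zbtb16 and 0.25 for Ddit4. With A-5 alone added to 0 μM it was 2.89 for Fkbp5 and 1.20 for Ddit4. The proliferation genes also moved in B-4, as given below, and their part in these values was not tested.

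The choice of the genes did not use the difference between days within treated cells. None of the 10 genes was called by edgeR between day 10 and day 5, where 0.905% of 16020 genes were called higher and 0.144% lower. At an unadjusted p under 0.05 edgeR found 2 of the 10 genes, DESeq2 2 and limma 4, beside 18.3%, 18% and 19.7% of all genes, and neither DESeq2 nor limma called any. Zbtb16 had 6.26 ± 1.03 CPM on day 5 and 10.2 ± 2.07 CPM on day 10 (SD, n = 3 doses). Its log2 fold change was 0.70 ± 0.19 SE (edgeR adjusted p = 0.0931), and the DESeq2 adjusted p was 0.0144 at a fold below the limit. Per1 had 190 ± 23.7 CPM on day 5 and 155 ± 9.41 CPM on day 10, and its log2 fold change was -0.30 ± 0.11 SE (edgeR adjusted p = 0.192). Fkbp5 and Tsc22d3 had log2 fold changes of -0.13 ± 0.12 and -0.13 ± 0.11 SE between days. Their day 5 and day 10 values overlapped. The counts over all genes, 145 higher and 23 lower, fell to 18 and 0 without the 200 μM library of day 5 and to 27 and 3 without that of day 10.

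The trend with dose was tested within treated cells as a slope per 100 μM, and none of the 10 genes was called by edgeR, with 0% of 16020 genes called in either direction. At an unadjusted p under 0.05 edgeR found 1 of the 10 genes, and DESeq2 and limma 0, beside 2.37%, 2.38% and 4.11% of all genes. The slope of Fkbp5 was -0.09 ± 0.15 SE and that of Tsc22d3 -0.12 ± 0.14 SE on the log2 scale. Dusp1 had the steepest slope, -0.88 ± 0.37 SE (edgeR adjusted p = 0.996). With single libraries left out it ranged from -1.40 to -0.34, the latter without the 100 μM library of day 10. When genes with as little as 1 count in total were kept, edgeR called Dusp1 (adjusted p = 4.63e-06), while over the other alternatives its adjusted p was 0.972 to 1. The lowest dose was 100 μM, so these data do not show where between 0 and 100 μM the levels change.

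Whether the change from 0 μM differed between days was fitted as the interaction of treatment and day. It uses the treated and 0 μM values on which the 10 genes were chosen, with 1 library at 0 μM per day, so their differences are given with no test. For Tsc22d3 the difference was -0.54 ± 0.21 SE on the log2 scale. For Zbtb16 it was -1.44 ± 0.68 SE, and on the log2(FPKM + 1) scale it was 0.27. Over 16794 genes edgeR called 0% higher and 0.0119% lower.

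Steroid receptors were measured beside these targets. Nr3c1, the glucocorticoid receptor, was the most abundant per length of those named here. It had 25.4 and 25.7 FPKM at 0 μM, 20.1 to 22.1 FPKM in treated cells on day 5 and 15.4 to 16.7 FPKM on day 10. The treated libraries were all below both 0 μM libraries, and the log2 fold change was -0.42 ± 0.11 SE (edgeR adjusted p = 0.00949), within the fold limit. Esr1 and Esr2, the estrogen receptors, had log2 fold changes of 0.70 and -0.62 and were not called. Esr1 was called higher with A-5 and B-4 in place of 0 μM (1.62) or added to it (1.09), and Esr2 was called lower without the 0 μM library of day 5 (-1.16). Nr3c2, the mineralocorticoid receptor, and Pgr, the progesterone receptor, had too few counts to be tested, with at most 0.029 and 0.0063 FPKM in any library.

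Genes that supply the hormone to the receptor were few and mostly uncalled. Apart from Hsd11b1, which had no test here, 5 were tested. Abcb1a, an efflux pump that exports steroids, was at the fold limit (log2 fold change -1.03 ± 0.17 SE, edgeR adjusted p = 0.00108) and was the 1 gene called lower. Its call was lost under 10 of 19 alternatives, among them leaving out the 0 μM library of day 10 (-0.70), either the 150 μM or the 200 μM library of day 10, or the 150 μM library of day 5. Hsd11b2, which inactivates the hormone, was at 0.124 and 0.143 FPKM at 0 μM and 0.153 to 0.328 FPKM in treated cells. The groups did not overlap, and it was not called (log2 fold change 0.77, edgeR adjusted p = 0.168). None of 11 receptor chaperones and none of 10 receptor coregulators was called by edgeR, beside 13.4% of all genes called higher and 5.98% lower. The medians of these lists were -0.25 and -0.12 on the log2 scale.

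Among 27 other glucocorticoid-induced genes tested, 11 were called higher and 3 lower, beside 13.4% and 5.98% of all genes tested. The median log2 fold change of the 27 was 0.65, or 0.65 with genes at 0 counts in controls set to their bound. Trim63, a ubiquitin ligase of muscle wasting, and Sult1a1, a sulfotransferase, had log2 fold changes of 7.36 ± 0.33 and 6.70 ± 0.35 SE (edgeR adjusted p = 6.22e-07 and 1.5e-06). Fam107a had 0 counts in both 0 μM libraries and was at least 5.53-fold higher in treated cells, which had 6 to 29 counts. It had 4 counts in A-5 and 225 in B-4, and with these in place of 0 μM it was called lower (-3.20, edgeR adjusted p = 0.0426). Mt2, a metallothionein, was the most abundant of the list and had a log2 fold change of 2.21 ± 0.26 SE. Angptl4, an inhibitor of lipoprotein lipase, Anxa1, a mediator of anti-inflammatory action, and Bcl6, a repressor, went the other way, with log2 fold changes of -3.54, -1.28 and -1.26. Leaving out the 0 μM library of day 10 ended the calls of Bcl6, whose log2 fold change was then -0.96, and of Fam107a, the latter through its adjusted p and not its fold. The call of Angptl4 was lost with A-5 and B-4 in place of 0 μM, where its log2 fold change was -1.01 (edgeR adjusted p = 0.26), and by limma, where its fold fell just short of the limit. With A-5 and B-4 in place of 0 μM 5 of the list were called higher, and with both added 3, and Sult1a1, Fam107a and Mt2 were not among them. The deposited annotation gave a further list, taken after values were seen. Of 68 tested genes with a glucocorticoid or corticosteroid term other than the 10 genes, 10 were called higher and 10 lower. Over all genes tested 13.4% were called higher and 5.98% lower. The median of the 68 was 0.03.

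Of 24 inflammatory genes known to be repressed by glucocorticoids 15 were tested. Among these, 11 were called lower and 1 higher, beside 5.98% and 13.4% of all genes tested. The median of the 15 was -1.60. Nos2, the inducible nitric oxide synthase, and the chemokine Ccl2 had log2 fold changes of -5.54 ± 0.27 and -5.16 ± 0.25 SE (edgeR adjusted p = 1.08e-06 and 1.14e-06). Mmp13, a collagenase of osteoblasts, was the exception, at 4.69 ± 0.36 SE (edgeR adjusted p = 1.15e-05). With A-5 and B-4 in place of 0 μM 4 were called lower, with both added 6, and Mmp13 was called in neither. With at least 10 counts required in every library 7 were called lower. Of 15 paralogs of the 10 genes tested, 0 were called higher and 4 lower, beside 13.4% and 5.98% of all genes tested. The 4 included Dusp6, Dusp5 and Dusp4, phosphatases related to Dusp1, with log2 fold changes of -1.94, -1.66 and -1.42. Per3, a paralog of Per1, had -1.33. With A-5 and B-4 in place of 0 μM 1 was called lower.

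Dusp1, Per1 and Ddit4 also respond to other signals, and lists for those were measured. The part of these signals in the levels of the 10 genes was not tested. Over all genes tested, beside which these lists stand, 13.4% were called higher and 5.98% lower. Of 19 immediate early genes 2 were called higher and 10 lower, with Egr1, a zinc finger factor, at -3.57 ± 0.28 SE and Atf3 at 1.76 ± 0.26 SE. Of 14 clock genes tested, apart from Per1, 1 was called higher and 3 lower. Of 9 hypoxia genes tested 0 were called higher and 6 lower, with Car9, a carbonic anhydrase, at -4.04 ± 0.18 SE. With A-5 and B-4 in place of 0 μM 5 immediate early genes and 2 hypoxia genes were called lower and no clock gene higher, and by limma no immediate early gene was called higher. None of 8 Atf4 stress genes was called by edgeR, and 1 was called lower with A-5 and B-4 in place of 0 μM. Their summed level was 407 and 413 FPKM at 0 μM and 293 to 377 FPKM in treated cells.

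**Figure D2:**
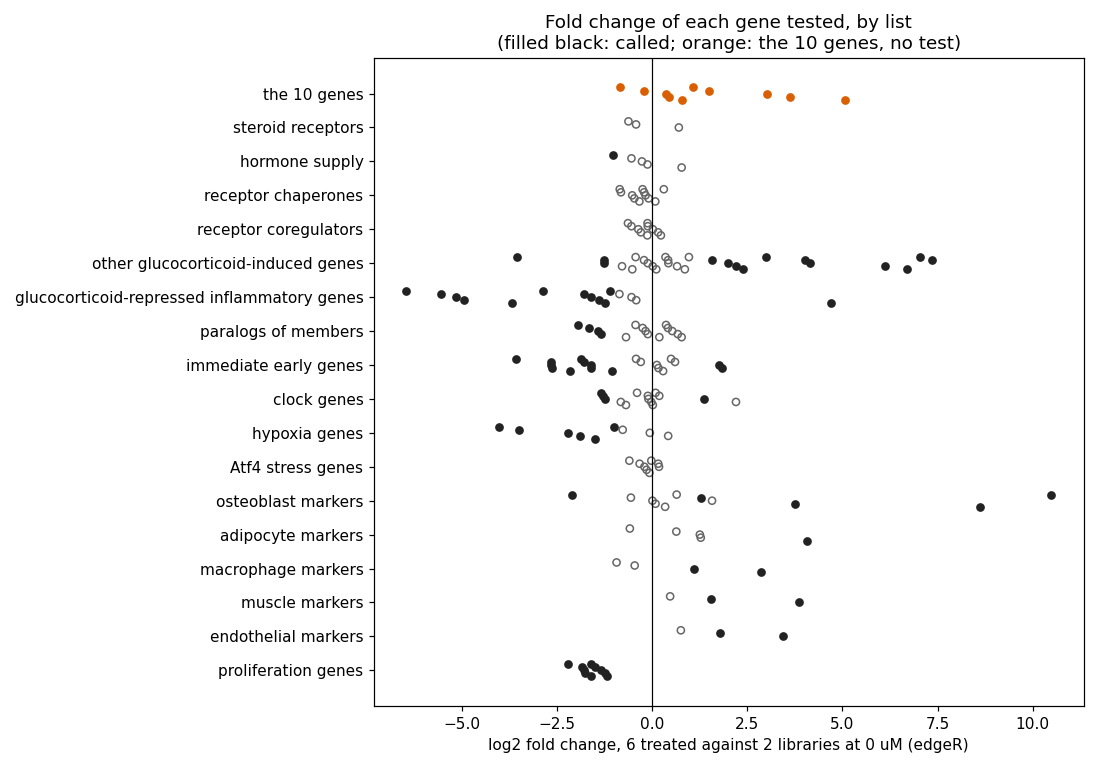
Log2 fold change of the 6 treated against the 2 libraries at 0 μM for each gene tested, with 1 row per list and 1 point per gene. Filled black points were called by edgeR, open points were not, and orange points are the 10 genes, which had no test and are drawn in their own row alone. The 10 genes range from -0.85 to 5.07.

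Proliferation genes and markers of other cell types moved with treatment, and their part in the levels of the 10 genes was not tested. All 10 proliferation genes were called lower, with a median of -1.61, beside 5.98% of all genes tested. With A-5 and B-4 in place of 0 μM or added to it, 0 of these genes were called lower. Their summed level was 585 and 640 FPKM at 0 μM, 193 to 294 FPKM in treated cells on day 5 and 149 to 173 FPKM on day 10, and Pcna was the most abundant. The sum was 401 FPKM in A-5 and 70.3 FPKM in B-4. Of 5 adipocyte markers tested 1 was called higher, of 4 macrophage markers 2, of 3 muscle markers 2 and of 3 endothelial markers 2. None of these was called lower. Over all genes tested 13.4% were called higher and 5.98% lower. The adipocyte call was Lep, with at most 0.364 FPKM in treated cells. Cebpa, another adipocyte marker, was uncalled and lower in all 6 treated libraries, at 0.513 to 0.865 times the 0 μM library of their day. The other macrophage markers tested ran lower and uncalled, Cd68 in all 6 treated libraries, at 0.67 to 0.79 times the 0 μM library of their day, and Csf1r in all but 1. Without the 0 μM library of day 5 these counts were 0 for adipocyte, 0 for macrophage and 1 for endothelial markers, and leaving out the 100 μM library of day 5 gave 1 for macrophage markers. Leaving out the 0 μM library of day 10 gave 1 for muscle markers. By limma none of these markers was called higher. Their summed levels were low: at most 4.85 FPKM for adipocyte, 2.62 for muscle and 0.616 for endothelial markers in any library. Macrophage markers summed to 12 and 20.9 FPKM at 0 μM and 22.6 to 42.5 FPKM in treated cells, nearly all from Lyz2. Ptprc, the pan-leukocyte marker, had 0 counts in both 0 μM libraries and 0 to 12 counts in treated cells, and Myod1, the muscle master factor, had 0 in all but 1 library.

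The genes whose levels were most like Fkbp5 were Ezh1, Zhx3, Bcat2, Sult1a1 and Tulp3, with Pearson r of log2 CPM of 0.995, 0.994, 0.991, 0.990 and 0.988 over 10 libraries. These 10 include A-5 and B-4, and Fkbp5 and the first 4 of these genes were each highest in B-4, so the values rest on B-4 as well as on the treated libraries. Tsc22d3 was 9th of 10392 genes, with r = 0.984. Ddit4 and Zbtb16 had r = 0.915 and 0.890, and Dusp1 had r = -0.135. By Spearman correlation none of the first 5 genes was kept, and without A-5 and B-4 1 was.

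The files did not state a genome build. In GENCODE M21 (build GRCm38) Fkbp5 lies on chromosome 17 from 28399094 to 28517527, Tsc22d3 on chromosome X from 140539528 to 140600659 and Sgk1 on chromosome 10 from 21882184 to 21999903. Dusp1, on chromosome 17, overlaps 956 bases of Gm8225, a processed pseudogene on the opposite strand with a mean of 1590.3 counts, and 640 bases of Ergic1. Hsd11b1 lies wholly within Lamb3, which is on the opposite strand. No source stated that strand was used in counting, so reads of these pairs cannot be told apart, and the Dusp1 and Hsd11b1 values are uncertain.

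Promoter windows of 300 bases were given by RefSeq (build GRCm38.p6) for 9 of the 10 genes, 18 windows in all, and not for Zbtb16. Each was searched on both strands for the response element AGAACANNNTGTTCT. The full element was in 1 of the 18 windows and in 0.00913% of 32851 promoters. With up to 1 mismatch in its fixed bases it was in 1 of the 18 and 0.164% of all, and with up to 2 mismatches in 2 of the 18 and 1.84% of all. All these were in Sgk1. The half-site AGAACA, which the full element contains, was in 4 of the 18 windows and 19.0% of all promoters. These windows belong to 2 genes, Sgk1 and Tsc22d3. The Sgk1 window below holds the full element, 189 bases before its start site, and is 1 of 6 windows of that gene. A window each of Tsc22d3 and Fkbp5 is shown beside it. The other Tsc22d3 windows held no half-site. Sites outside the windows were not searched, and a link of these sites to the levels was not tested. The Sgk1 window lies at chr10:21993640-21993939 on the plus strand, that of Tsc22d3 at chrX:140600473-140600772 and that of Fkbp5 at chr17:28486100-28486399, both on the minus strand. The Sgk1 and Fkbp5 windows lie inside the genes as GENCODE gives them, so their start sites are not the outermost ones. Capitals mark the full element and half-sites, and the Fkbp5 window has neither.
Sgk1: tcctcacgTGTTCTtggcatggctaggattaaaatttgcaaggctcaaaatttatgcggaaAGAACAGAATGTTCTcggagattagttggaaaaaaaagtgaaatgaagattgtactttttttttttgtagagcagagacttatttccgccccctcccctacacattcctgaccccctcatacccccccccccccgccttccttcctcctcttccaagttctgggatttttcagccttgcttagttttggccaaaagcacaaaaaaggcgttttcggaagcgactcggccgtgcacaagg
Tsc22d3: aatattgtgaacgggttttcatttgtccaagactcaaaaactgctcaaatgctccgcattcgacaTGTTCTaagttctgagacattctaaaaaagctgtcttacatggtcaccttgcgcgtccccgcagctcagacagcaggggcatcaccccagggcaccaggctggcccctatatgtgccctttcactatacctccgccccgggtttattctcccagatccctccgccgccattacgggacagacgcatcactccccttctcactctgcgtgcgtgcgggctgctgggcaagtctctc
Fkbp5: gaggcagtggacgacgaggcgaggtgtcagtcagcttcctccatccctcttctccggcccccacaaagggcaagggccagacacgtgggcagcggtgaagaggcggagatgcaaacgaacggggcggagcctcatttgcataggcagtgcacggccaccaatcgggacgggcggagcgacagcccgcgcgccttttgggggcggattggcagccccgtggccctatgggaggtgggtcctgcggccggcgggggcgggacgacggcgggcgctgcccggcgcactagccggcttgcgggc
A match describes the letters of a window and is not evidence of binding.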

How the data were processed

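The authors deposited 1 table of read counts per gene, not normalized, and of FPKM values per gene for 10 libraries of MC3T3-E1 cells. The submitters' processing notes name HISAT2 2.0.4 and GATK 3.2-2. Their roles, the genome build and the annotation are not given in the sources used here. The 39 columns with the authors' own edgeR comparisons were not used. Counts were analysed with edgeR 4.0.16 (quasi-likelihood test, TMM, filterByExpr, Benjamini-Hochberg adjustment over all genes tested), with DESeq2 1.42.0 and limma 3.58.1 on log2(FPKM + 1) as alternatives, in R 4.3.3. Tables were made with pandas 2.3.3 and numpy 2.4.6. Day was a covariate in the treated and dose comparisons. Log2 CPM used a prior count of 2. The edgeR and DESeq2 fits were tested on simulated data. The members and the gene lists were chosen with earlier results of these data known. The text names all 10 genes and the genes of the list of steroid receptors. From each other list it draws on up to 3 called genes with the largest change in each direction and the gene with the highest mean FPKM. It also takes the 5 genes most like Fkbp5 with a mean of at least 5 CPM, and genes overlapping the 10. Other genes named were picked after their values were seen. They were the marker genes Alpl, Runx2, Spp1, Bglap2, Cebpa, Ptprc, Cd68, Csf1r and Myod1 among the fixed lists, and Hsd11b2 and Per3. Alternatives covered the tool, scaling, filter, covariate, controls, unit and each library left out. A listed gene is not reported here and enters no list value.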

Additional observations from a re-analysis of the deposited data

Results flagged for a closer look

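Sgk1 was high in 1 of the 6 treated libraries, at 645 CPM in the 100 μM library of day 5, far from the others relative to their range. The summed endothelial markers were high in the 150 μM library of day 5, at 0.616 FPKM. Chance gives such a gap in about 1 of 20 groups, and 32 values were looked at.

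The untreated libraries enter none of the main comparisons of treatment, day and dose, and several of the 10 genes were above the higher of the 0 μM libraries there. In B-4 the CPM was 14 times that library for Fkbp5, 11.3 times for Tsc22d3, 5.8 times for Zbtb16 and 5.14 times for Ddit4. It was 1.61 times for Errfi1, 1.58 times for Dusp1, 1.5 times for Sgk1, 1.19 times for Per1 and 1.11 times for Klf9. In A-5 it was 1.31 times for Fkbp5, 1.35 times for Klf9, 1.40 times for Dusp1, 1.19 times for Hsd11b1 and 1.49 times for Ddit4. No test was made of these single libraries, and the cause was not tested.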

How the results depend on the processing

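The direction of Fkbp5, Tsc22d3 and Zbtb16 in treated cells held under each alternative that gave them a value, though Fkbp5 was only 0.08 with A-5 and B-4 in place of 0 μM, and 2358 of 2609 values kept their call or lack of one or, where there was no test, moved by less than the spread between libraries or, for counts, by at most 1.5 times. Some uncalled values near 0 changed sign. None of the 10 genes was called between days under any alternative run. For dose 1 was, with genes of at least 1 count in total kept. Other such changes had causes that were not tested, except that a stricter filter leaves fewer genes. Depth limits Hsd11b1 and Zbtb16 at 0 μM. With dose as a replicate block the day comparison called 175 genes higher and 31 lower and 0 of the 10 genes. Libraries of the same dose deviated together by correlations of 0.104, 0.116 and -0.035, so the doses did not pair them.

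For treated against 0 μM, calls were 1099 higher with at least 10 counts in every library, 526 higher and 612 lower by limma, 1286 and 453 with A-5 and B-4 added to 0 μM, and 1078 and 460 with both in place of it. The median of the 10 genes was 1.20 with A-5 added, 0.60 with both added and 0.41 with both in place of 0 μM, and 0.89 to 1.14 with single libraries left out. Genes over 2-fold in all 6 treated libraries were 275 higher and 235 lower on log2(FPKM + 1).

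For the days, calls were 60 lower by DESeq2, 274 higher and 72 lower with at least 1 count in total, 46 lower with depth class (chosen after seeing the data), 72 lower with library totals, 36 and 4 by limma, and 333 and 115 without a fold limit. They ranged from 18 to 186 higher and 0 to 38 lower with single libraries left out. For dose, calls were 1 higher and 1 lower by DESeq2, 49 and 59 with at least 1 count in total, 1 higher with depth class and 0 to 1 higher with single libraries left out. For the difference between days, calls were 49 higher and 22 lower by DESeq2, 77 and 23 with at least 1 count in total, 1 lower with at least 10 counts and 0 lower by limma, and 0 to 5 higher and 0 to 4 lower with single libraries left out. Of the 5 genes most like Fkbp5, 0 were kept by Spearman correlation and 1 without A-5 and B-4.

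List medians moved as follows, those of hormone supply and clock genes being taken with Hsd11b1 and Per1. With at least 1 count in total they were -1.24 for repressed inflammatory genes, -1.27 for hypoxia genes, 1.96 for macrophage markers and 0.69, in place of -0.42, for steroid receptors. With at least 10 counts in every library they were 0.075 for adipocyte markers, 0.81 for endothelial markers, -1.18 for inflammatory genes, -0.14 for hormone supply and -1.21 for hypoxia genes. By limma they were 0.069 for adipocyte, 0.11 for endothelial and 0.45 for muscle markers, -1.09 for inflammatory genes, -0.15 for hormone supply, -1.02 for hypoxia genes and 0.31 for other induced genes. With A-5 added they were 0.80 for adipocyte markers, -0.20 for clock genes, -0.17 for hormone supply, -1.25 for hypoxia genes and 1.23 for macrophage markers. With both untreated libraries added they were 0.68 for adipocyte markers, -0.20 for clock genes, -1.16 for inflammatory genes, 0.050 for hormone supply, -1.24 for hypoxia genes, 1.15 for macrophage markers, 0.39 for other induced genes, -0.92 for proliferation genes and 0.011 for coregulators. With both in place of 0 μM they were 0.69 for adipocyte markers, -0.41 for clock genes, -0.63 for inflammatory genes, 0.21 for hormone supply, -0.84 for hypoxia genes, -0.74 for immediate early genes, 1.22 for macrophage markers, 0.18 for other induced genes, 0.089 for coregulators and, with its sign reversed, 0.045 for proliferation genes.

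With single libraries left out the medians ranged from -0.25 to -0.042 for coregulators, -1.85 to -1.49 for inflammatory genes, -0.19 to -0.070 for clock genes, 0.032 to 1.71 for osteoblast markers, 0.49 to 1.35 for adipocyte markers, 0.71 to 3.12 for endothelial markers, 0.27 to 3.32 for macrophage markers, -0.52 to -0.032 for hormone supply, -0.60 to -0.017 for steroid receptors and -0.33 to -0.16 for paralogs. Log2 fold changes that reversed when A-5 and B-4 replaced the 0 μM libraries were -0.42 for Ddit4, -0.28 for Bhlhe41, 0.10 for Ccnb2, -0.46 for Ckm, -0.16 for Mt2 and -3.20 for Fam107a, which was thereby called lower, and was -2.18 and uncalled with them added. Angptl4 was uncalled with both in place of 0 μM (-1.01) and by limma.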
